A study of Mus musculus with 2 samples.

Results

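Myf5, Myod1, Msc, Tcf3, Tcf4 and Tcf12 encode basic helix-loop-helix (bHLH) transcription factors of the myogenic programme. They were chosen by symbol and make up 6 of the 32286 features counted. Their unique molecular identifiers (UMIs, each standing for a captured transcript) were counted in cells sorted from regenerating mouse muscle. The study separated satellite cells, the stem cells of skeletal muscle, into a GFP+ and a GFP- fraction by flow cytometry. Both fractions came from biceps and recto femoris muscles of Pax3GFP/+ animals at 5 days after injury, and the genotype field of both samples reads wild-type. GFP reports the Pax3 locus, so the GFP+ fraction is labelled PAX3+ and the GFP- fraction PAX3-. For each fraction 20000 cells were loaded for droplet-based 3′ sequencing and 1 library was made. The labels leave out the strain, age, sex and number of animals and the kind of injury. With 1 library per fraction no test between fractions was possible, every difference is between these libraries, and all intervals are 95% intervals for counting error only.

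Myf5 and Myod1 are the determination factors that commit cells to the muscle lineage, and Myog drives the differentiation that follows. They bind E-box DNA as heterodimers with the E proteins, which Tcf3, Tcf4 and Tcf12 encode. These genes are not the Wnt effectors Tcf7l1 and Tcf7l2, which share older names with them. Msc (musculin, also called MyoR) is a related factor known as a repressor of myogenic genes, and Id proteins take up E proteins in dimers that cannot bind DNA. Pax7 marks satellite cells and their undifferentiated progeny.

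In the mm10 build with GENCODE M21 models, Myf5 lies at chr10:107482908-107486134 on the minus strand and Myod1 at chr7:46376474-46379099 on the plus strand. Tcf3 lies at chr10:80409514-80433647 on the minus strand. Tcf12 lies at chr9:71842688-72111871 on the minus strand. The following coding stretch, 78 bases for the DNA-contacting basic region and the start of the helix after it, is shown for 4 of the genes because it is what members of the family share. Capitals mark bases identical to those of Myf5 at the same place, so the Myf5 line itself has none.
Myf5: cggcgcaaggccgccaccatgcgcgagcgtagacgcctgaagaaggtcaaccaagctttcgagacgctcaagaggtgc
Myod1: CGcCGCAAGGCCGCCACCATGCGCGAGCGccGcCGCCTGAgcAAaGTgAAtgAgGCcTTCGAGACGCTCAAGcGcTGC
Tcf3: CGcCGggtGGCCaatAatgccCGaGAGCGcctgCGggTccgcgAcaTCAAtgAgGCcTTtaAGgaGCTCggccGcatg
Tcf12: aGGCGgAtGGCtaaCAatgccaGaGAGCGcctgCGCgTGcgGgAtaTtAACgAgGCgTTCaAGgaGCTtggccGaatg
The stretches lie in exon 1 of Myf5 (chr10:107485605-107485682) and Myod1 (chr7:46377000-46377077). They lie in exon 18 of Tcf3 (chr10:80412924-80413001) and exon 19 of Tcf12 (chr9:71856402-71856479). Myod1 shared 64 of the 78 bases with Myf5 (82.1%), Tcf12 39 (50%) and Tcf3 36 (46.2%). The E protein genes Tcf3 and Tcf12 shared 62 bases with each other. Where a gene has several models the one with the longest coding sequence was used, and UMIs counted at the 3′ end do not separate isoforms with alternative exons for this region.

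Cells were barcodes holding 1000 or more UMIs and 500 or more genes, with mitochondrial UMIs up to 10%, which gave 604 GFP+ and 2683 GFP- cells. Their median depths were 18534.5 and 14663 UMIs and their totals 11981352 and 44264206 UMIs. Levels are summed UMIs scaled to the total UMIs of the same cells, in the usual CPM unit, and are compared between cells, not between genes. Pax3 itself stood 4.34-fold higher in the GFP+ myogenic cells (3.60 to 5.25). The sort labels all cells satellite cells, but clustering found macrophage-like cells (76 GFP+ and 57 GFP-), a cluster of 6 GFP+ and 124 GFP- cells, and glial-like cells (0 and 17). The 124 GFP- cells are called mural-like, with mural markers summing to 16347 CPM, while the 6 GFP+ cells of that cluster are not named, since they held mural markers at 679 CPM and fibro-adipogenic ones at 4662 CPM. The other clusters are called myogenic and held 522 GFP+ and 2485 GFP- cells, among them 4 and 14 cells of a shallow cluster that was not named. The libraries shared 2 kept barcodes, and doublets were in effect not removed, since the caller marked 3 cells in each.

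Myf5 was lower and Myod1 higher in cells with Myog than in cells with Pax7 alone, in both libraries. Classes set by at least 1 raw UMI of Pax7 and of Myog held 371 GFP+ and 1490 GFP- Pax7+Myog- cells, 57 and 338 Pax7+Myog+ cells, and 76 and 402 Pax7-Myog+ cells. In the GFP+ library Myf5 stood at 408 CPM in Pax7+Myog- cells, 170 CPM in Pax7+Myog+ cells and 38.7 CPM in Pax7-Myog+ cells. In the GFP- library its levels were 255, 156 and 35.9 CPM in the same order. The Myf5 level of Pax7+Myog- cells was thus 10.5 times that of Pax7-Myog+ cells in the GFP+ library (8.47 to 13.3) and 7.11 times in the GFP- library (6.28 to 8.06). Myod1 went the other way, from 43.0 through 219 to 231 CPM in the GFP+ library and from 38.4 through 142 to 291 CPM in the GFP- library. Its ratio of Pax7+Myog- over Pax7-Myog+ cells was 0.186 (0.161 to 0.216) and 0.132 (0.122 to 0.143). In the GFP+ library the last Myod1 step, between classes with intervals of 197 to 243 and 211 to 252 CPM, lay within counting error, while in the GFP- library these intervals (134 to 151 and 279 to 303 CPM) did not overlap.

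Msc, the repressor, followed Myf5. It stood at 209, 44.5 and 17.9 CPM along the same classes of the GFP+ library and at 171, 80.5 and 17.5 CPM in the GFP- library. The ratio of the outer classes was 11.6 (8.45 to 16.5) and 9.77 (8.20 to 11.7). The Pax7-Myog+ class includes 5 GFP+ and 13 GFP- cells from outside the myogenic clusters, and without them Msc stood at 12.2 and 18.1 CPM there. The GFP+ ratio of Msc moved to 17.2 in myogenic clusters, to 18.9 with classes set at 2 UMIs and to 18.0 without the 5% of cells with most UMIs.

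The E protein genes moved less. Tcf4, at chr18:69343356-69689079 on the plus strand, was higher in Pax7+Myog- than in Pax7-Myog+ cells, at 333 against 160 CPM in the GFP+ library (ratio 2.07, 1.85 to 2.33) and 401 against 262 CPM in the GFP- library (1.53, 1.46 to 1.61). Tcf3 gave ratios of 1.20 (0.991 to 1.46) and 1.31 (1.18 to 1.45), from levels of 75.4 and 62.8 CPM in GFP+ and 80.4 and 61.4 CPM in GFP- cells. Tcf12 gave 1.03 (0.886 to 1.20) in the GFP+ library, where its 3 class levels lay between 104 and 109 CPM, and 0.858 (0.802 to 0.919) in the GFP- library. At a size limit of 1.5-fold and at least 20 CPM in either class, Myf5, Msc and Tcf4 were higher in Pax7+Myog- cells and Myod1 lower, in each library. The same limit was passed upwards by 20.6% of all measured genes in the GFP+ library and 17.6% in the GFP- library, and downwards by 17.5% and 11.5%. The members' counts, 3 of 6 higher and 1 lower, are read against these shares, and nothing particular to the 6 genes follows from them.

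**Figure D1:**
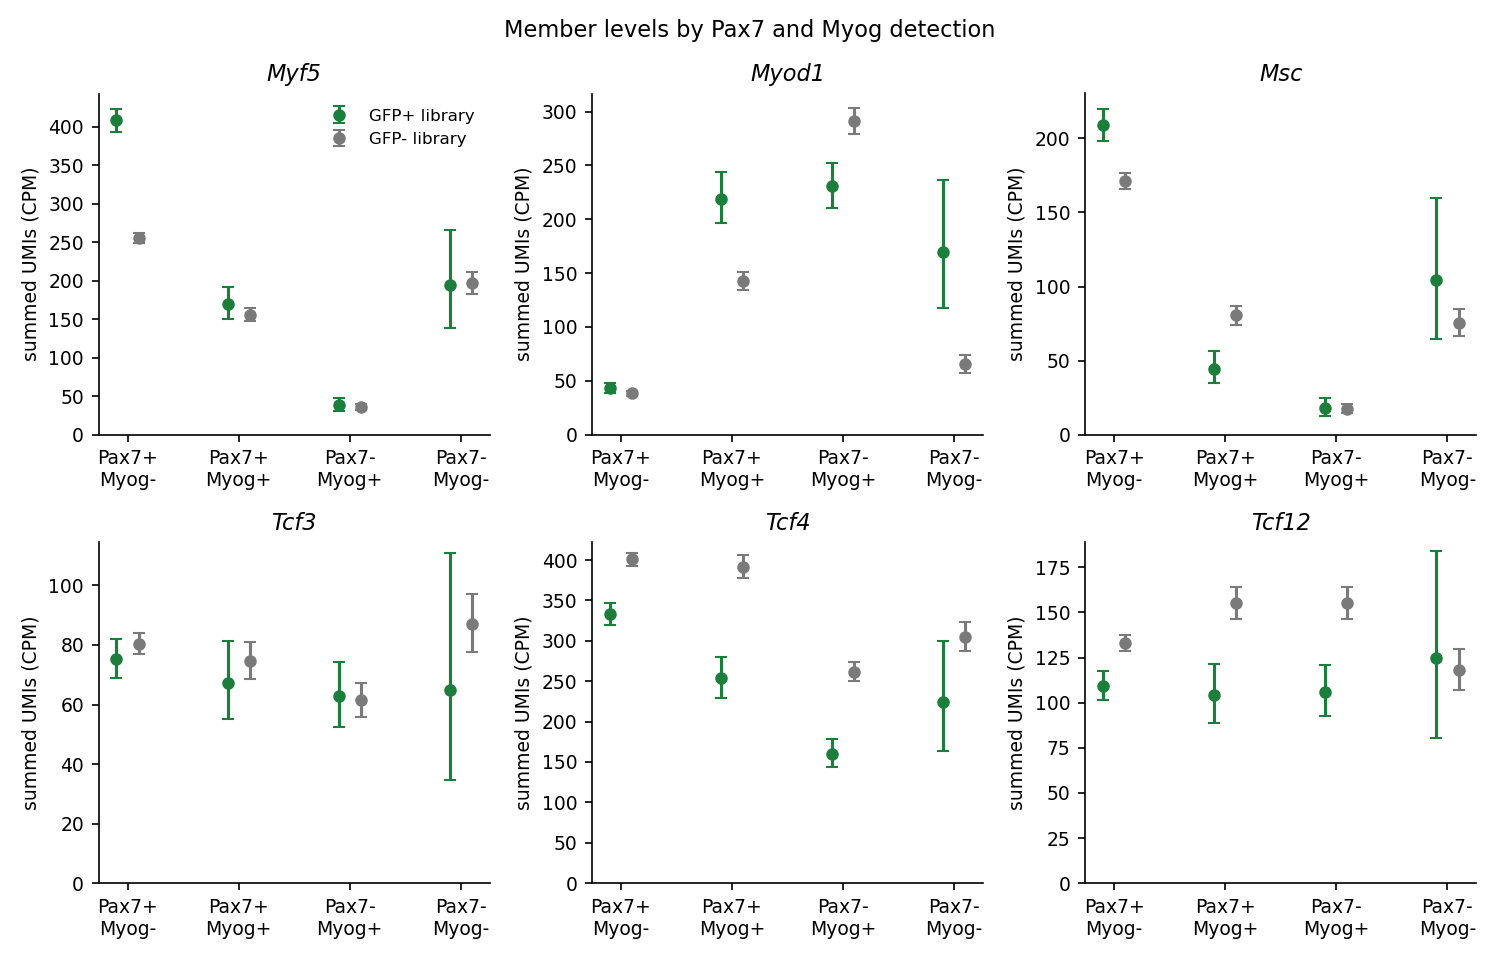
Summed UMIs in CPM (linear axes from 0) of the 6 genes by Pax7 and Myog detection, GFP+ library in green and GFP- library in grey, with points for the pooled level of the cells and bars for exact 95% Poisson intervals. The Pax7-Myog- class is drawn for myogenic clusters only (24 GFP+ and 278 GFP- cells), and Myf5 and Msc descend from the leftmost class to Pax7-Myog+ while Myod1 climbs.

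The Pax7-Myog- class was mixed. Of its 100 GFP+ cells 76 (76.0%) lay outside the myogenic clusters, as did 175 of 453 GFP- cells (38.6%). Within the myogenic clusters its cells had Myf5 levels of 194 CPM (138 to 266) in the GFP+ and 196 CPM (182 to 211) in the GFP- library. The 24 GFP+ cells of that group had a median of 4089.5 UMIs, against 18380 in Pax7+Myog- cells, and the part of depth in their class was not tested.

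Id genes, whose products withhold E proteins, did not move as a block. Id3 was higher in Pax7+Myog- than in Pax7-Myog+ cells by 6.83-fold in the GFP+ library (5.72 to 8.22) and 2.59-fold in the GFP- library (2.40 to 2.81). Id2 gave 1.40 (1.18 to 1.67) and 1.42 (1.30 to 1.56). Id1 went the other way, with ratios of 0.696 (0.561 to 0.866) and 0.537 (0.483 to 0.597). Id4 was below 20 CPM in both classes.

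Other bHLH factors and inhibitors, from lists drawn up with earlier results of these data known, were counted by the same limit. Of all measured genes 20.6% were higher in Pax7+Myog- cells and 17.5% lower in the GFP+ library, and 17.6% and 11.5% in the GFP- library. Of 5 measured Hes, Hey and orange-domain factors, most of them Notch targets or transcriptional repressors, Hes1, Heyl, Bhlhe40 and Bhlhe41 were higher in Pax7+Myog- cells of both libraries and Hes6 lower. Heyl showed this most, at 201 against 16.99 CPM in GFP+ cells (ratio 11.8) and 182 against 27.2 CPM in GFP- cells (6.70). Hes6, known to promote differentiation, stood at 59.5 against 233 CPM and 64.0 against 283 CPM. Inhibitors that are not bHLH proteins were higher in 6 of 10 measured genes of the GFP+ library and 5 of 9 of the GFP- library, and lower in 0 of them. Mdfic, a relative of the MyoD family inhibitor, gave ratios of 5.18 (3.86 to 7.11) and 3.82 (3.35 to 4.38). Snai2, which encodes an E-box repressor, gave 2.46 (1.82 to 3.38) and 1.85 (1.63 to 2.11). The list medians on the log2 scale were 0.80 and 0.63, against 0.02 and 0.05 for all measured genes.

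Partners that act with the myogenic factors were counted in Pax7+Myog- cells against Pax7-Myog+ cells. Of 13 measured cofactors in the GFP+ library 7 were lower and 2 higher, where 17.5% of all measured genes were lower and 20.6% higher. Of 14 in the GFP- library 5 were lower and 2 higher, where the shares of all genes were 11.5% and 17.6%. The lower genes in both libraries included Mef2a, Mef2c and Mef2d, which encode partners of the myogenic factors at muscle promoters, and Rb1, which holds cells out of the cycle. Mef2c stood at 5.34 against 29.7 CPM in GFP+ cells (ratio 0.180) and 10.7 against 82.0 CPM in GFP- cells (0.130). Kat2b was among the higher ones in both. Of 20 measured early Myod1 target genes, 12 were lower and 4 higher in the GFP+ library and 13 lower and 3 higher in the GFP- library. Mymk, the fusion gene myomaker, had 5 UMIs in GFP+ Pax7+Myog- cells against 1008 in Pax7-Myog+ cells. This list holds Myog, which defines the classes, so its direction is no independent result.

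Across the sorted libraries the ratio of Myf5 lay farthest from 1 among the 6 genes. Over all kept cells it stood at 268 CPM in the GFP+ and 188 CPM in the GFP- library (ratio 1.43, 1.37 to 1.49), with 3216 and 8306 UMIs. Within Pax7+Myog- cells the ratio was 1.60 (1.53 to 1.67), within Pax7+Myog+ cells 1.09 (0.953 to 1.25) and within Pax7-Myog+ cells 1.08 (0.832 to 1.39). The difference thus exceeded counting error in the undifferentiated class and not in the Myog+ classes; the change of the ratio between classes was not tested. Leaving out the cluster with the most Erfe, which held 122 GFP+ and 53 GFP- cells, gave 1.34 (1.29 to 1.40) over the remaining cells. Within Pax7+Myog- myogenic cells without that cluster it was 1.55 (1.48 to 1.63).

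The Myod1 interval included 1 over all kept cells, at 97.3 and 99.5 CPM (ratio 0.978, 0.916 to 1.04). Its classes gave different values. In Pax7+Myog- cells the ratio was 1.12 (0.979 to 1.28), and within myogenic clusters without the highest-Erfe cluster it turned to 0.835 (0.711 to 0.977) in that class. In Pax7+Myog+ cells the GFP+ level was 1.54 times the GFP- level (1.36 to 1.74), and in Pax7-Myog+ cells it was 0.794 times (0.718 to 0.876). Msc was 1.13 times as high in the GFP+ library (1.07 to 1.20), with 1.22 (1.15 to 1.30) in Pax7+Myog- cells and 0.552 (0.425 to 0.708) in Pax7+Myog+ cells.

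Tcf4 and Tcf12 were lower in the GFP+ library in each class, and also with TMM scaling over all cells (0.778 and 0.764). Tcf4 stood at 277 against 370 CPM (ratio 0.748, 0.721 to 0.777) and Tcf12 at 101 against 137 CPM (0.735, 0.690 to 0.782). The ratios in Pax7+Myog- cells were 0.830 for Tcf4 and 0.822 for Tcf12, and in Pax7-Myog+ cells 0.613 and 0.685. Tcf3 gave 0.877 (0.810 to 0.947) over all cells and 0.937 (0.849 to 1.03) in Pax7+Myog- cells. No member passed 1.5-fold over all kept cells, where 6.94% of 6007 measured genes were higher and 2.63% lower. The median of those genes was −0.11 on the log2 scale and that of the members −0.11. In Pax7+Myog- cells Myf5 alone passed, against 4.45% of genes higher and 2.2% lower, and in myogenic clusters again Myf5 alone, against 3.79% and 1.61%.

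**Figure D2:**
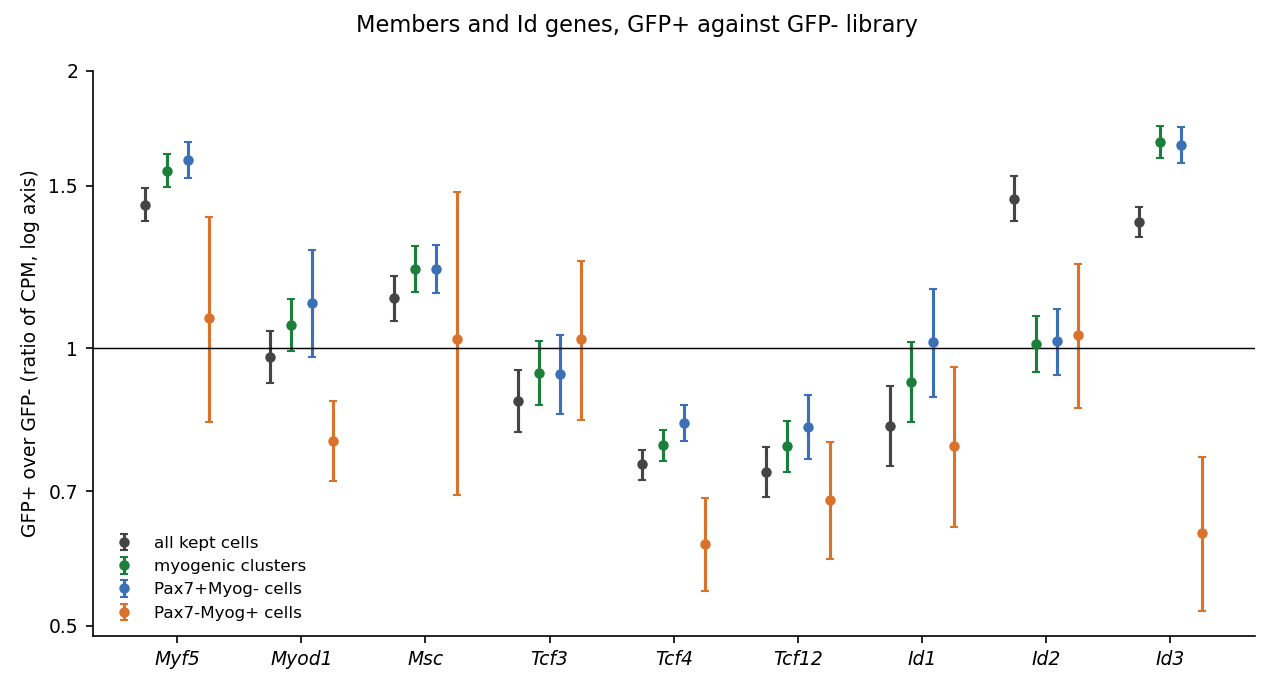
Ratio of GFP+ to GFP- CPM (log axis, line at 1) for the 6 genes and Id1 to Id3 in all kept cells, myogenic clusters, Pax7+Myog- cells and Pax7-Myog+ cells, with exact 95% intervals for counting error. Myf5 and Id3 lie above 1 in the first 3 sets, and Tcf4 and Tcf12 below 1 in all 4.

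Cell composition moves with these sums. GFP+ macrophage-like cells held 0 UMIs of Myf5, Myod1 and Msc among 1194557 UMIs, which allows up to 2.51 CPM, and they made up more of the GFP+ library. Tcf4 was present in them at 154 CPM, and in GFP- mural-like cells at 505 CPM, so the E protein sums include other cell types. Over myogenic clusters the ratios were 1.56 for Myf5, 1.06 for Myod1, 1.22 for Msc, 0.940 for Tcf3, 0.785 for Tcf4 and 0.783 for Tcf12. In the myogenic clusters the 9 macrophage markers summed to 15.6 CPM in GFP+ and 7.93 CPM in GFP- cells, with 0 of 9 over 20 CPM. GFP- macrophage-like cells carried Myf5 at 62.6 CPM, Myod1 at 20.3 CPM and Myog at 227 CPM. Over both libraries this cluster of 76 GFP+ and 57 GFP- cells held Myog at 81.8 CPM. A second clustering, with the members, Pax7 and Myog among the genes used, gave 76 and 55 macrophage-like cells with Myog at 5.66 CPM. The Myog level of these cells thus depended on the clustering, and the source of the RNA of the 3 genes was not tested.

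In the wider lists 76 genes were measured between the libraries, of which 3 were higher and 5 lower in GFP+, where 6.94% of all measured genes were higher and 2.63% lower. With TMM scaling 7 were higher and 5 lower, against 7.89% and 1.90% of all genes. The higher genes were Bhlhe41 (ratio 1.74), Foxo3 (1.55) and Zfp36 (2.32), whose product destabilises messages. Zfp36 was 1.62 in Pax7+Myog- cells. The lower genes were Scx (0.635), Myl4 (0.524) and the proliferation genes Mki67 (0.517), Ccnb1 (0.508) and Cenpf (0.567). Pax3 and Fgfr4 joined the higher genes within Pax7+Myog- cells, at 4.58 (3.67 to 5.72) and 1.60 (1.49 to 1.70), and Id3 at 1.66 (1.59 to 1.74).

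Across clusters Myf5 and Myod1 were arranged differently. Myf5 was highest in the cluster with the most Erfe (cluster 7, led by Erfe, Hmcn2 and Chrdl2) in the GFP+ library, at 503 CPM (455 to 554), and next in cluster 2 (Igf2, Plagl1 and Itm2a) at 470 CPM (446 to 495). These intervals overlap. In the GFP- library cluster 2 was highest at 320 CPM (308 to 331) and cluster 7 stood at 293 CPM (227 to 373). Cluster 0 (Ccl21a and Spp1) followed at 366 and 263 CPM, and in the GFP- library its interval (254 to 273) lay within that of cluster 7. The lowest myogenic level was in cluster 4 (Actc1, Acta1 and Myog), at 23.2 and 42.1 CPM.

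Myod1 was highest in cluster 4, at 237 CPM (215 to 261) in the GFP+ and 302 CPM (290 to 315) in the GFP- library. Cluster 7 held 161 and 213 CPM of it, above clusters 0 and 2, where it stood between 27.3 and 44.2 CPM in both libraries. In the cycling cluster (cluster 3, led by histone and mitotic genes) the GFP+ cells held 226 CPM (201 to 254) and the GFP- cells 109 CPM (101 to 116), from 284 and 773 UMIs. The GFP+ interval overlaps that of cluster 4. Against all other myogenic clusters cluster 7 gave Myod1 ratios of 1.52 (1.25 to 1.82) and 2.06 (1.52 to 2.74), and Myf5 ratios of 1.75 (1.57 to 1.94) and 1.505 (1.16 to 1.92). Cluster 7 cells had a median of 5541 UMIs, while clusters 0 to 4 had medians from 12571 to 26986, and the part of depth was not tested.

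Msc was highest in cluster 2, at 337 and 325 CPM, and cluster 7 held 208 and 213 CPM. Msc was left out of the clustering genes but is among the leading genes of cluster 2, so its level there describes the cluster. Tcf3 was highest in the cycling GFP- cells at 101 CPM (93.8 to 109) and in GFP+ cells spanned 45.4 to 82.4 CPM over the myogenic clusters. Tcf12 spanned 82.9 to 123 CPM in GFP+ and 107 to 167 CPM in GFP- cells. Over 12 myogenic cluster and library profiles, as a description of profiles that share libraries, the correlation of Myf5 with Msc was 0.88 and with Myod1 −0.56. Over all 15 profiles, which add clusters outside the myogenic ones, these values were 0.92 and 0.38, so the sign for Myod1 depended on the profiles used.

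**Figure D3:**
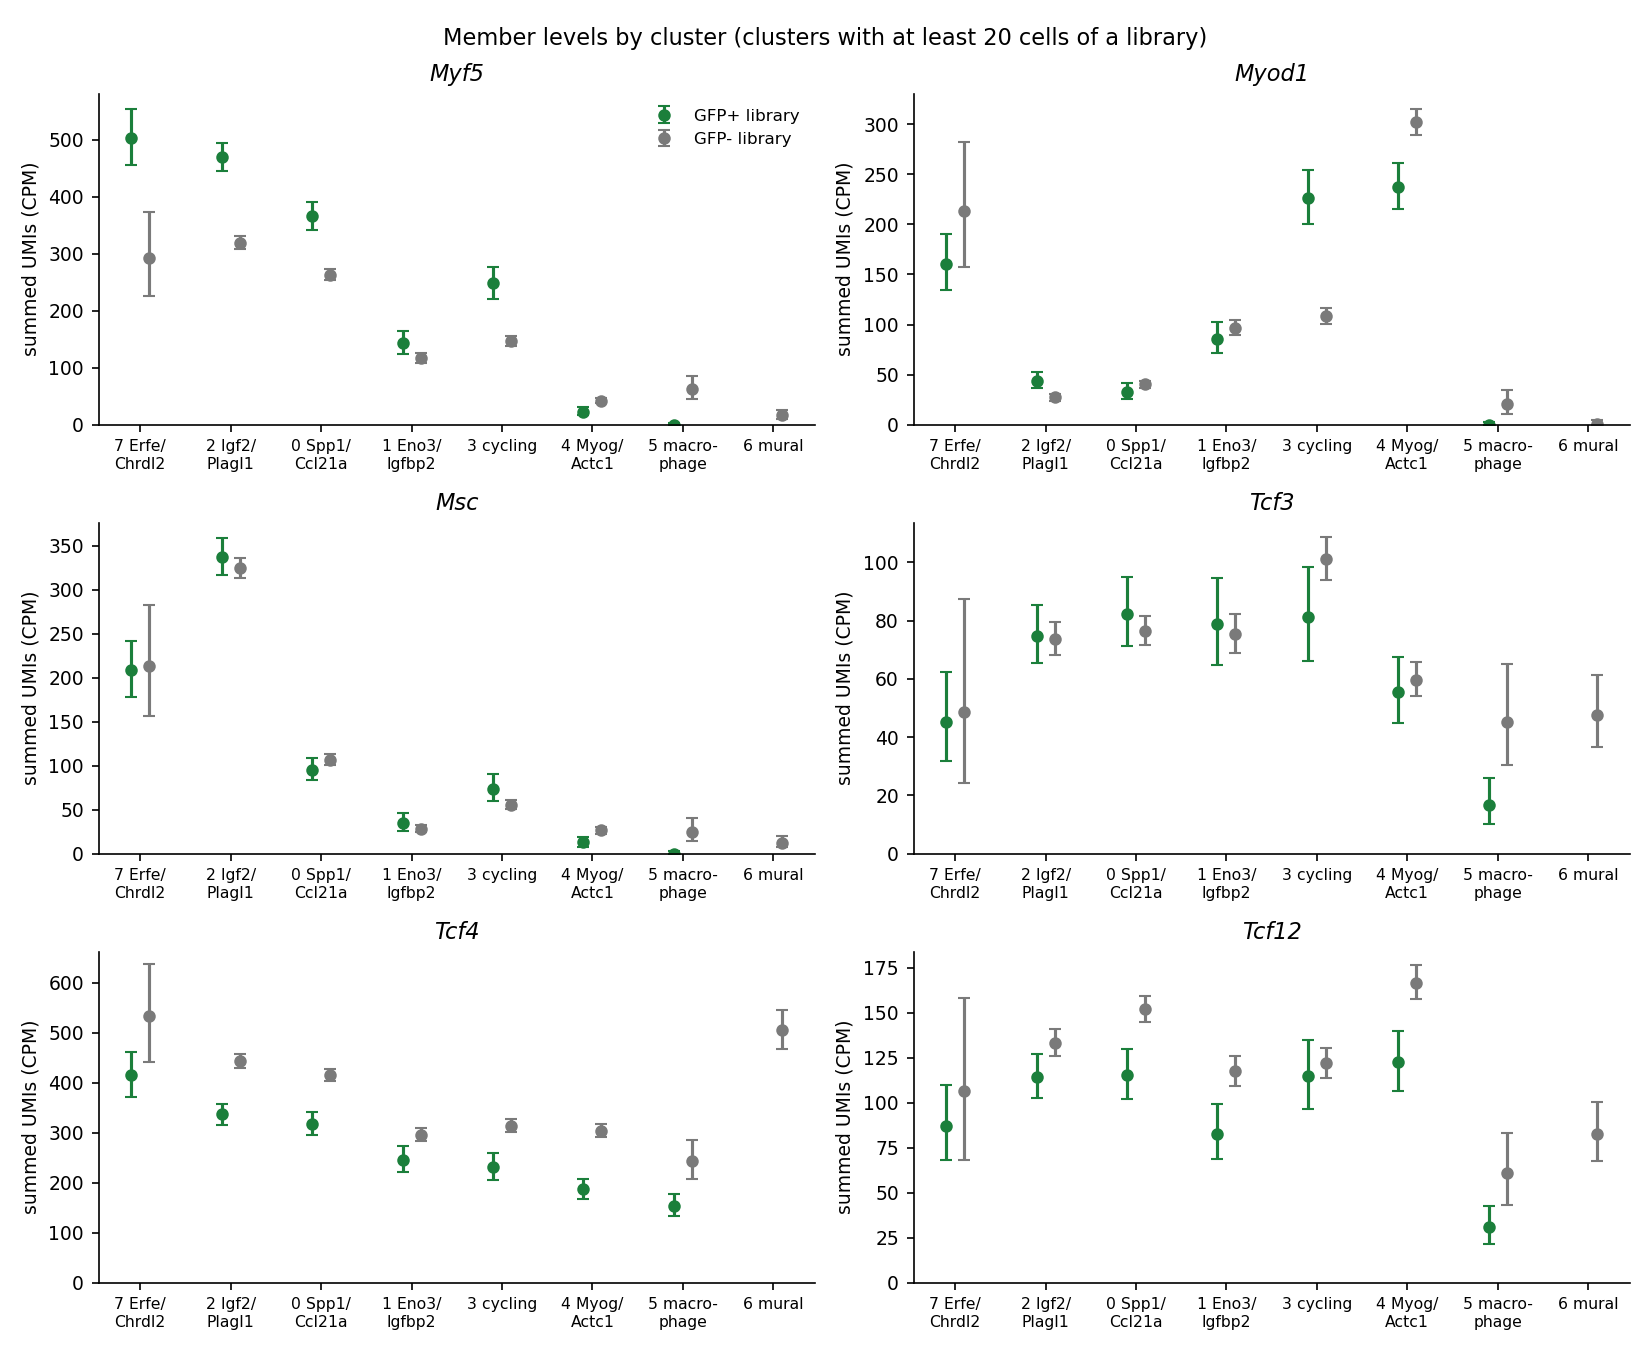
Summed UMIs in CPM (linear axes from 0) of the 6 genes in 8 clusters, GFP+ in green and GFP- in grey, with exact 95% Poisson intervals for clusters with at least 20 cells of a library. Myf5 and Myod1 are both above 150 CPM in cluster 7 of each library and in the cycling cluster 3 of GFP+ (248 and 226 CPM). Among the myogenic clusters Myf5 is lowest and Myod1 highest in the Myog/Actc1 cluster, though its GFP+ Myod1 interval overlaps that of cluster 3.

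Over all 15 profiles, non-myogenic clusters included, the genes with profiles most like Myf5 were En1 (r = 0.958), Pax7 (0.954), Mboat1 (0.943), Dpy19l3 (0.940) and Dmrt2 (0.926). Those most like Myod1 were Ank1 (0.918), Rrp9 (0.902), Hsph1 (0.895), Jsrp1 (0.885) and Ppan (0.884). Pax7 was among the 3 nearest genes of Msc as well (0.942). Over the 12 myogenic profiles the nearest genes of Myf5 were instead Scpep1 (0.967), Col3a1 (0.960), Itpripl2 (0.957), Jup (0.956) and Notch3 (0.954), with Pax7 at 0.917. Those of Myod1 were Ybx3 (0.939), Oaz1 (0.930), Cdkn1a (0.911), Mapre1 (0.905) and Atp2a2 (0.904). Over all 15 profiles, for Tcf3 the nearest was Tead2 (0.960), for Tcf4 Nbea (0.961) and for Tcf12 Tia1 (0.973).

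Cells with UMIs of both Myf5 and Myod1 were fewer than the separate shares would give. Each cell was thinned to 5000 UMIs, which left 538 GFP+ and 2493 GFP- cells (66 and 190 shallower cells were left out). Cluster 7, where both genes stood above 150 CPM, kept 81 of its 122 GFP+ and 14 of its 53 GFP- cells. What this loss does to the shares was not tested. Myf5 was then detected in 54.8% of GFP+ cells (69.7% unthinned) and 49.9% of GFP- cells (72.2% unthinned), and Myod1 in 20.1% (34.9%) and 21.4% (36.3%). In the GFP+ library 250 cells had Myf5 only, 63 Myod1 only, 45 both and 180 neither. In the GFP- library the numbers were 1078, 368, 166 and 881. Both genes were seen in 8.36% of GFP+ cells (6.17 to 11.03), where the product of the shares gives 11.01%, and in 6.66% of GFP- cells (5.71 to 7.71), where it gives 10.7%. The observed share was 0.760 of the product in the GFP+ library (0.560 to 1.002) and 0.623 in the GFP- library (0.534 to 0.721). These intervals are those of the observed share divided by the product, which was held fixed, so including 1 does not show independence. Myod1 was seen in 15.3% of GFP+ cells with Myf5 (11.3 to 19.9) and 25.9% of those without (20.5 to 31.9). In the GFP- library these shares were 13.3% (11.5 to 15.4) and 29.5% (26.9 to 32.1). In myogenic clusters the observed share was 0.654 of the product (0.483 to 0.860) and 0.595 (0.510 to 0.688).

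For comparison with cells that should lack these genes, thinned macrophage-like cells had Myf5 in 0 of 69 GFP+ cells, which allows a share of up to 4.35% at 3 counts, and in 3 of 44 GFP- cells (6.82%, 13.6% unthinned). Myod1 was seen in 0 of 69 and 4 of 44 (9.09%). These cells had 13996 and 8896 UMIs at the median of each library before they were thinned, against 20030 and 15243 for all cells used. Cells with both genes numbered 0 of 44 in the GFP- macrophage-like group.

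Inside single classes, set here by detection at the same depth, most ratios were closer to 1, and the change was not tested. Within Pax7+Myog- cells the ratio was 0.847 (0.562 to 1.21) in the GFP+ and 0.792 (0.618 to 0.997) in the GFP- library. Within Pax7-Myog+ cells it was 1.11 (0.367 to 2.496) and 0.732 (0.491 to 1.04). In GFP- cells of that class Myod1 was seen in 40.0% of cells with Myf5 (28.5 to 52.4) and 57.4% without (52.2 to 62.4). In myogenic cells without any raw Myog UMI, a choice made after the data were seen, the ratio was 0.928 (0.648 to 1.28) and 0.799 (0.661 to 0.956). In clusters 0 and 2 of the GFP- library it was 0.922 (0.715 to 1.16) and 0.923 (0.673 to 1.23), and in cluster 1 0.544 (0.320 to 0.856). Clusters 3 and 4 gave 0.673 (0.411 to 1.03) and 0.765 (0.484 to 1.14). The GFP+ library did not show that order. Its clusters 0, 2 and 1 gave 0.556 (0.153 to 1.37), 0.779 (0.434 to 1.27) and 1.30 (0.363 to 3.09). Its clusters 3, 4 and 7 gave 0.976 (0.478 to 1.61), 0.875 (0.182 to 2.44) and 0.825 (0.424 to 1.40). Cluster 7 of the GFP- library gave 0.583 (0.0727 to 1.75) from 14 cells.

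**Figure D4:**
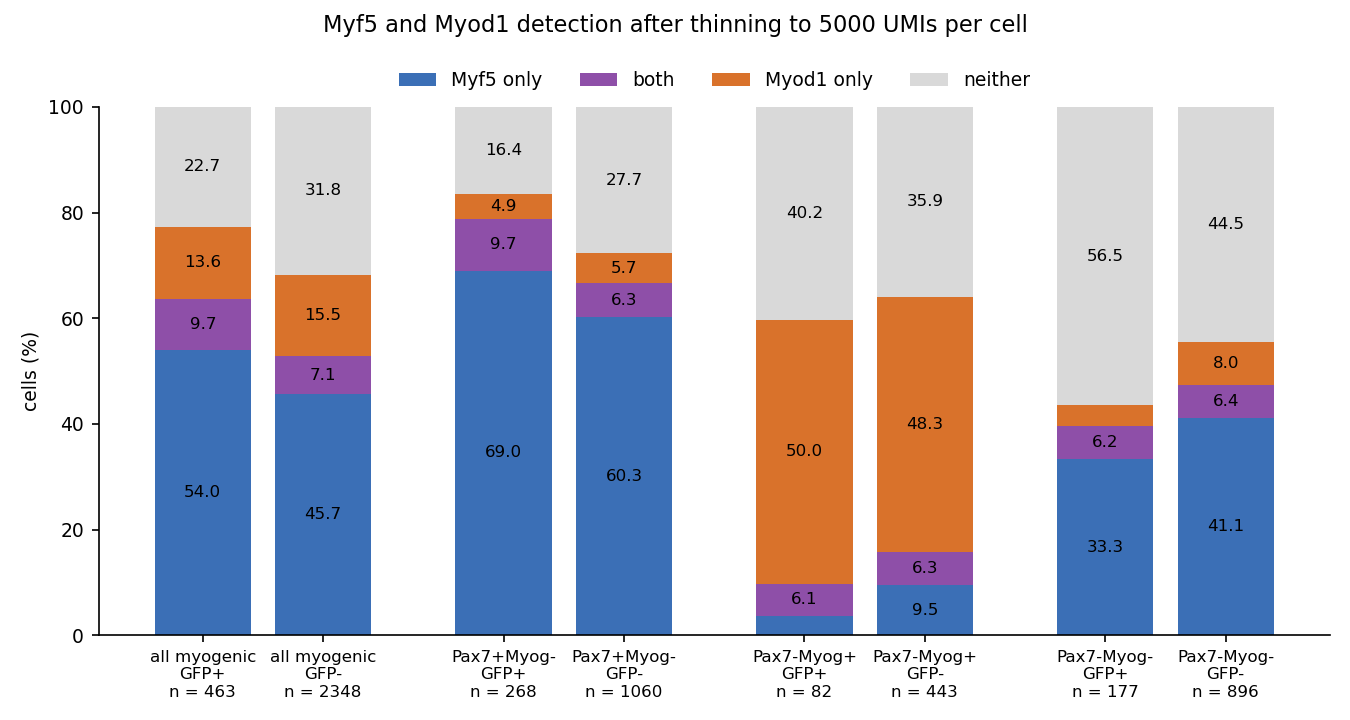
Share of cells (percent, linear axis from 0) with UMIs of Myf5 only, both, Myod1 only or neither after thinning to 5000 UMIs, by library, for all myogenic cells and by Pax7 and Myog detection over all kept cells at that depth. Both genes are found in 9.7% of GFP+ and 7.1% of GFP- myogenic cells, and Myod1-only cells make up 50% and 48.3% of Pax7-Myog+ cells.

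Other pairs were counted in the same way. Myf5 and Msc were found together 1.23 times as often as the product in GFP+ myogenic cells (1.06 to 1.41) and 1.28 times in GFP- cells (1.18 to 1.38). Myod1 and Msc were found together 0.554 times (0.354 to 0.821) and 0.499 times (0.402 to 0.612) as often. Within Pax7+Myog- cells Myf5 and Msc gave 1.07 (0.912 to 1.23) and 1.08 (0.989 to 1.18). Myod1 and Msc gave 0.787 (0.445 to 1.27) and 0.694 (0.501 to 0.935) there. The product was held fixed in these intervals as well, so whether the pairs depart from 1 in this class was not tested. The 6 pairs of Myf5 or Myod1 with an E protein gene lay between 0.886 and 1.09 in myogenic cells of the libraries. Within Pax7+Myog- cells Myod1 and Tcf12 gave 0.808 (0.422 to 1.39) in GFP+ and 1.26 (1.01 to 1.56) in GFP- cells. The other pairs lay between 0.916 and 1.06 there. Single cells also differed in how many Myf5 UMIs they held. At 5000 UMIs, 12.7% of GFP+ myogenic cells had at least 5 Myf5 UMIs and 3.66% of GFP- cells did, with highest counts of 11 and 12.

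Cells with Myf5 only and with Myod1 only differed in other genes too. In myogenic clusters 250 GFP+ and 1073 GFP- cells were Myf5-only and 63 and 363 Myod1-only. Msc was 7.99 times as high in Myf5-only cells of the GFP+ library (5.99 to 10.9), at 239 against 29.9 CPM, and 6.37 times in the GFP- library (5.57 to 7.32), at 193 against 30.3 CPM. Pax7 was 4.07 and 3.86 times as high, and Id3 3.71 and 2.17 times. The 10 genes highest in Myf5-only cells were Chodl, Msc, Timp3, Pxdc1, Dcx, Itih5, Apoe, Col4a1, Gpc3 and Col4a2. The 10 lowest were Actc1, Mymk, Myog, Acta1, Klhl41, Myh3, Casz1, Mymx, Fndc5 and Mylpf. Myf5-only cells held 2.42 CPM of Mymk in the GFP+ library against 375 CPM in Myod1-only cells.

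E protein genes again moved less. Tcf4 was 1.47 (1.31 to 1.65) and 1.34 (1.27 to 1.40) times as high in Myf5-only cells, Tcf3 1.09 (0.878 to 1.36) and 1.11 (1.002 to 1.23), and Tcf12 0.956 (0.811 to 1.13) and 0.898 (0.836 to 0.965). Past 1.5-fold were 18.1% of measured genes higher and 14.6% lower in the GFP+ library, and 11.7% and 9.32% in the GFP- library. Beside Myf5 and Myod1, which define these cells, Msc was the only member past it. Among the cell cycle inhibitors, Cdkn1a gave 0.254 and 0.213 and Cdkn1c 0.305 and 0.416. Mki67 went opposite ways, at 1.99 (1.39 to 2.91) in the GFP+ and 0.746 (0.676 to 0.825) in the GFP- library. Of 2745 genes with enough UMIs, 2435 had the same direction in both libraries.

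**Figure D5:**
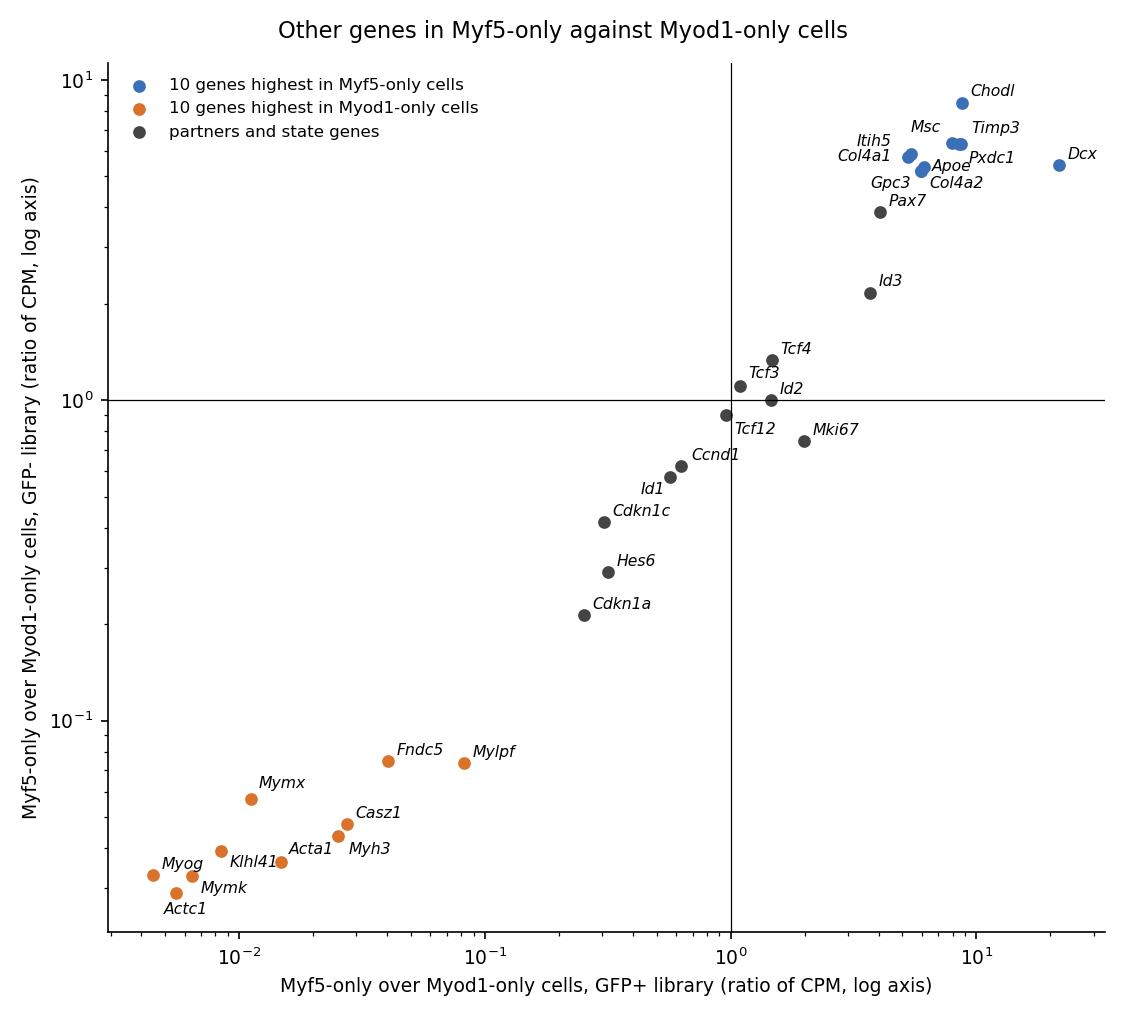
Ratio of CPM in Myf5-only over Myod1-only myogenic cells, GFP+ library (x) against GFP- library (y), both log axes with lines at 1. Blue points are the 10 genes highest and orange the 10 genes lowest in Myf5-only cells, both sets picked by these ratios, and grey points are partners and state genes, of which Mki67 lies on opposite sides of 1.

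Many of these differences were smaller among cells without a Myog UMI, but some grew or turned. Without cells holding a raw Myog UMI, a choice made after the data were seen, 233 and 934 Myf5-only and 13 and 107 Myod1-only cells were left. Msc was then 2.29 (1.56 to 3.53) and 2.89 (2.44 to 3.45) times as high in Myf5-only cells, and Pax7 1.36 (1.02 to 1.84) and 1.83 (1.60 to 2.10) times. Tcf4 came to 1.03 (0.824 to 1.32) and 1.09 (1.01 to 1.18). Tcf3 gave 0.685 (0.459 to 1.06) and 0.781 (0.672 to 0.911), below 1 where it had been above. Cdkn1c also turned, to 1.60 (1.38 to 1.85) and 4.68 (4.34 to 5.06), and Cdkn1a came to 1.17 (0.828 to 1.72) and 0.714 (0.633 to 0.807). Ccnd1 moved farther below 1, from 0.630 and 0.623 to 0.462 and 0.386. In the GFP- library Mki67 did so too, from 0.746 to 0.364 (0.320 to 0.414), at 59.7 against 164 CPM. In the GFP+ library Mki67 went the other way, with 182 UMIs (40.3 CPM) in Myf5-only cells and 0 UMIs in Myod1-only cells. The GFP+ values of this comparison rest on 13 Myod1-only cells.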

How the data were processed

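The authors deposited raw UMI counts per gene and barcode, made with Cell Ranger 4 per the file headers. The submitters' processing notes also name Seurat and the build mm10. No annotation release or counting setting is given in the sources used here. Members and gene lists were chosen with earlier results of these data known. Barcodes were kept at 1000 UMIs, 500 genes and 10% mitochondrial UMIs. scrublet in scanpy 1.11.5 with an expected rate of 0.08 called 3 doublets per library (0.497% and 0.112%), so doublets were in effect kept.

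Cells were clustered without integration (2000 variable genes without the members, Pax7 and Myog, 30 components, 15 neighbours, Leiden resolution 0.6, without Pax3 and sex-linked genes) and named from marker lists, not by the authors. A cluster whose mean marker ratios for non-myogenic types were all under 2 on the log2 scale was called myogenic; that limit was set with the data in view. CPM were computed here from summed counts of the same cells. For shares, cells were thinned to 5000 UMIs. Ratios of levels carry exact conditional and shares exact binomial (Clopper-Pearson) 95% intervals, and a count of 0 allows up to 3 counts. For an observed share over a product of shares, the binomial interval of the observed share was divided by the product. The product was held fixed, though it comes from the same cells. Intervals cover counting error only. Genes were measured at 20 CPM in either group and called at 1.5-fold. Named genes were the members, Pax7, Myog, up to 4 per list by absolute log2 ratio, the 10 highest and lowest between Myf5-only and Myod1-only cells (at least 50 CPM and 20 UMIs) and the nearest profiles by Pearson r of log2(CPM + 10). Some list genes are named beyond this, after their values were seen. Calculations were tested on simulated data. Coding sequences come from GENCODE M21 transcripts. Some items are not reported here. numpy 2.4.6, scipy 1.17.1 and edgeR 4.0.16 (TMM scaling only) were used.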

Additional observations from a re-analysis of the deposited data

Results flagged for a closer look

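The change of the GFP+ over GFP- ratio between classes was not tested for either gene here. In the myogenic clusters Myod1 was higher in GFP+ than in GFP- cells of the Pax7+Myog+ class (ratio 1.54, 1.36 to 1.74) and lower in the Pax7-Myog+ class (0.868, 0.785 to 0.958). Msc was higher in GFP+ cells of the Pax7+Myog- class (1.22, 1.14 to 1.29) and lower in the Pax7+Myog+ class (0.552, 0.425 to 0.708). Each pair was picked out because the intervals of its classes lie on opposite sides of 1. They rest on 345 GFP+ UMIs of Myod1 and 70 of Msc in 57 Pax7+Myog+ cells.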

How the results depend on the processing

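No paired analysis was possible because each fraction has 1 library. In 62 of 94 cases the values of the main comparisons under other settings stayed within their counting interval or, for gene counts, within 1.5 times. Without cells holding a Myog UMI, ratios of Myf5-only over Myod1-only cells were checked for Msc, Pax7, Id3, E protein and cell cycle genes. Of those with an interval that had excluded 1, 4 turned to its other side: Cdkn1c to 1.60 (GFP+) and 4.68 (GFP-), Cdkn1a to 1.17 in GFP+ and Tcf3 to 0.781 in GFP-. Outside this set Acta1 also crossed 1, to 1.51 (0.401 to 12.8) in GFP+ and 1.25 (0.888 to 1.82) in GFP-. Id1 crossed it in GFP+, to 1.66 (0.750 to 4.59). The Myf5 ratio of GFP+ over GFP- was 1.56 in myogenic clusters, 1.34 without the highest-Erfe cluster and 1.55 in Pax7+Myog- myogenic cells without it. The Myod1 ratio was 1.06, 1.13 as a mean of per-cell CPM, and 0.835 in those Pax7+Myog- cells. The Myod1 ratio of Pax7+Myog- over Pax7-Myog+ cells was 0.140 and 0.109 (GFP+ and GFP-) with classes set at 2 UMIs and 0.134 and 0.114 with classes at 5000 UMIs, where Myf5 gave 5.94 in GFP-. It was 0.156 in GFP+ without the 5% of cells with most UMIs. Depth set the shares: at 2500 and 10000 UMIs Myf5 was in 40.7% and 62.4% of GFP+ and 35.0% and 66.5% of GFP- cells, Myod1 in 14.0% and 29.5% and in 14.2% and 32.7%, and both in 3.92% and 13.7% and in 2.76% and 15.8%. The observed share over the product was 0.728 at 10000 UMIs in GFP-. In cells without a Myog UMI it was 1.12 (GFP+, from 0.760) and 0.849 (GFP-), and 0.799 in GFP- myogenic cells. List genes higher in GFP+ numbered 5 at 5 CPM, 1 at 2-fold and 7 with TMM scaling, where 8.67%, 3.80% and 7.89% of all genes were higher, and lower ones 0 at 2-fold, against 0.516% of all genes. The alternatives on cells without Myog UMIs, and those on Pax7+Myog- cells without the highest-Erfe cluster, were added after the data were seen.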
